A study of Homo sapiens with 6 samples.

Results

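The collagen genes are the human genes that encode the alpha chains of the collagens, and here they comprise the 44 genes, of 57820 in the deposited count tables, whose symbol is COL, a type number, A and a chain number. Collagen chains carry a glycine at each repeat of the Gly-X-Y sequence and wind around each other in a triple helix, which is secreted and assembled into fibrils, sheets or filaments of the extracellular matrix. Bone is built on fibrils of type I collagen with small amounts of type V, and osteosarcoma is a tumor whose cells lay down such a matrix. Basement membranes, the sheets under epithelia and around vessels, are instead built on networks of type IV collagen.

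The genes were compared by RNA sequencing in untreated AID-DIvA cells, an osteosarcoma line derived from U2OS that carries in both genotypes an AsiSI restriction enzyme which enters the nucleus only when tamoxifen is added. The WT samples (n = 3) carry intact ARID1A, and the ARID1A-KO samples (n = 3) descend from knockout clones made with Cas9 and guides against ARID1A, a subunit that binds DNA in the SWI/SNF complex, a remodeler of chromatin. The study describes its replicates as independent experiments. How many clones were sequenced is not given in the sources used here. All fold changes give ARID1A-KO over WT.

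ARID1A itself was found at 166, 178 and 177 CPM (read counts scaled to the TMM library size) in the WT samples and at 25.1, 27.5 and 25.2 CPM in the ARID1A-KO samples, so that it was lower in every sample labelled as knockout. Total counts were between 54512105 and 84088708 per sample. Of the osteoblast genes, RUNX2 was present at 11.5 to 18.8 CPM in all samples, while SP7, BGLAP and IBSP stayed under 0.2 CPM. RUNX2 had a log2 fold change of -0.03 (edgeR adjusted p = 0.899). SPP1 and ALPL were lower in ARID1A-KO cells, with log2 fold changes of -1.45 (adjusted p = 0.00222) and -2.45 (adjusted p = 0.000148). The summed level of the 6 osteoblast lineage markers was 17.1 to 29.4 RPKM (CPM per kilobase of exon) in WT and 7.5 to 11.6 RPKM in ARID1A-KO cells, that of 3 epithelial markers was 2.0 to 2.68 and 6.40 to 8.47 RPKM, and the leukocyte marker PTPRC was at 0.176 to 0.291 and 0.0190 to 0.0801 RPKM. Of the epithelial markers, KRT20 lay between 0.155 and 0.282 CPM in WT and between 6.68 and 10.4 CPM in ARID1A-KO cells, while CDH1 was lower (log2 fold change -1.19, edgeR adjusted p = 0.00593). The sum of 4 mesenchymal markers was 660 to 747 RPKM in WT and at least 905 RPKM in ARID1A-KO cells. VIM alone of these was higher, with a mean of 474 RPKM in WT and 851 RPKM in ARID1A-KO cells. SPARC and CDH2 were lower (log2 fold changes -0.89 and -0.72, edgeR adjusted p = 4.49e-05 and 5.31e-05), and FN1 had a log2 fold change of -0.19 (adjusted p = 0.584). The part of these changes in the collagen results was not tested. In such bulk samples, fewer cells that express a gene and less RNA per cell cannot be told apart.

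Loss of ARID1A was accompanied by lower levels of many collagen genes. Of the 44 genes, 38 had enough counts for the test, and 18 of them differed between the genotypes at an adjusted p-value under 0.05 in edgeR's quasi-likelihood test (47.4%), compared with 36.2% of all 19599 genes tested. The differences went mostly one way. Lower in ARID1A-KO cells were 16 collagen genes, or 42.1% of those tested against 18.4% of all genes, and higher were 2, COL9A2 and COL13A1, or 5.26% against 17.8% of all genes. Without WT replicate 4, 4 were higher. The median log2 fold change of the 38 collagen genes was -0.46, and that of all genes tested was 0.007. The CPM values of the genotypes did not overlap for 19 of the 38 (50%), a share near the 49.5% of all genes tested. A gene could pass the filter on low counts through its level in one genotype alone. Among the 16 lower genes this holds for COL4A3, with 58, 31 and 39 counts in WT and 1, 7 and 4 in ARID1A-KO cells. COL6A5, COL6A6, COL9A1, COL10A1, COL23A1 and COL25A1 were not tested, with at most 11 counts in any sample.

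**Figure D1:**
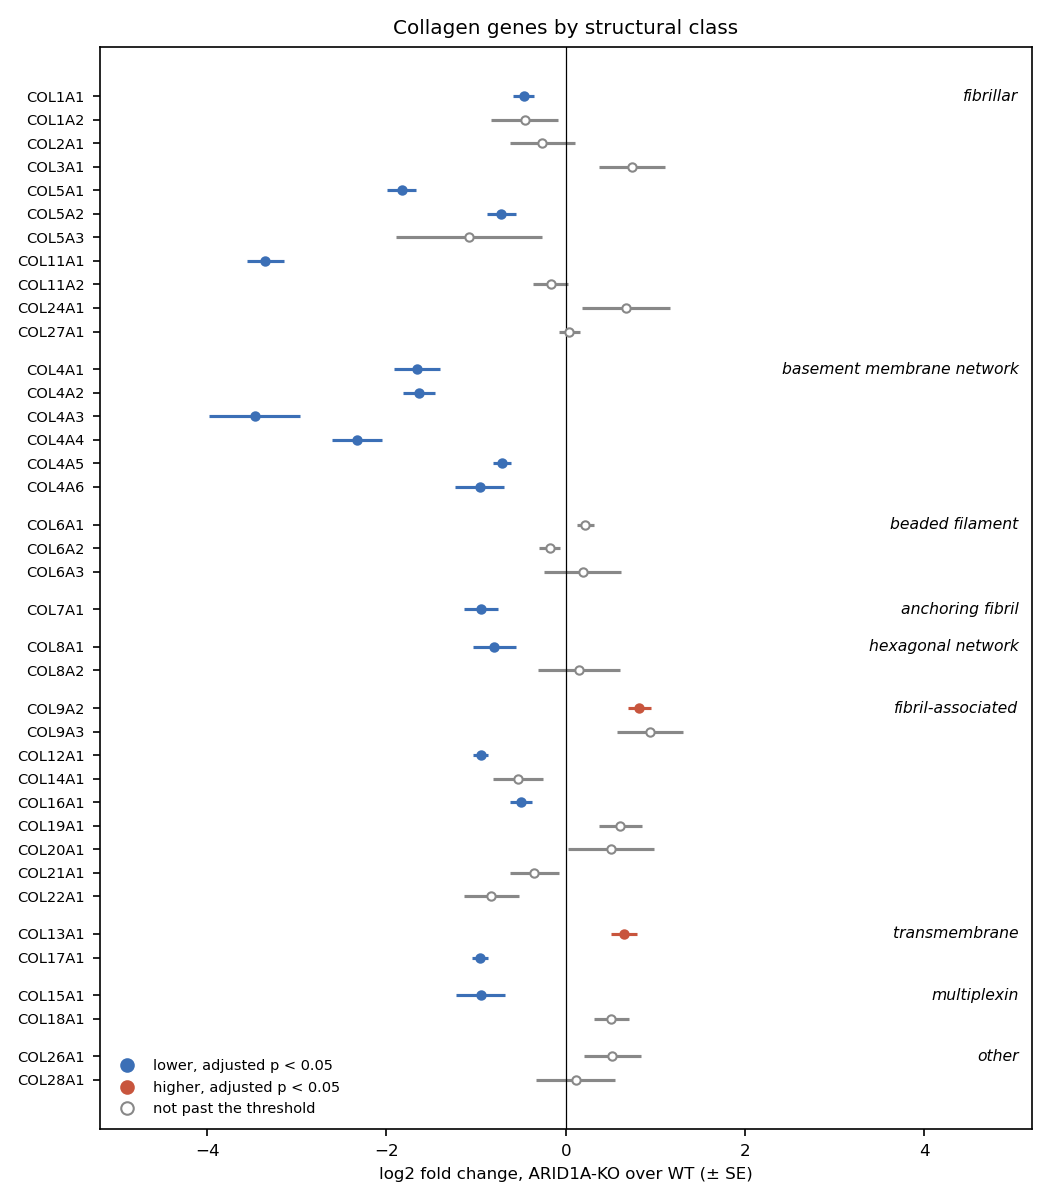
Log2 fold change of the 38 tested collagen genes, ARID1A-KO over WT, with the standard error, grouped by the structure that the chains form. Filled points passed the test, and all 6 chains of the basement membrane network lie to the left of 0, while the 3 tested beaded filament chains lie close to it. COL4A3, among the 6, could pass the filter on low counts through WT alone.

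The collagens of these cells were dominated by a few chains. On the RPKM scale, COL4A2 had the highest level in WT cells, with a mean of 98.6 RPKM, followed by COL12A1 with 59.0, COL1A1 with 45.5, COL4A1 with 34.9 and COL6A2 with 24.4 RPKM. In ARID1A-KO cells COL1A1 came first with 32.8 RPKM, before COL4A2 with 31.6, COL12A1 with 30.5 and COL6A2 with 21.5 RPKM, and the first 3 of these lay close together. Summed over all 44 genes, the level was 297, 380 and 347 RPKM in the WT samples and 182, 208 and 204 RPKM in the ARID1A-KO samples. The 6 type IV chains made up 34.6%, 45.6% and 38.2% of this sum in WT and 24.1%, 25.5% and 17.2% in ARID1A-KO cells. Both the sums and the type IV shares were lower in every ARID1A-KO sample than in every WT sample.

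**Figure D2:**
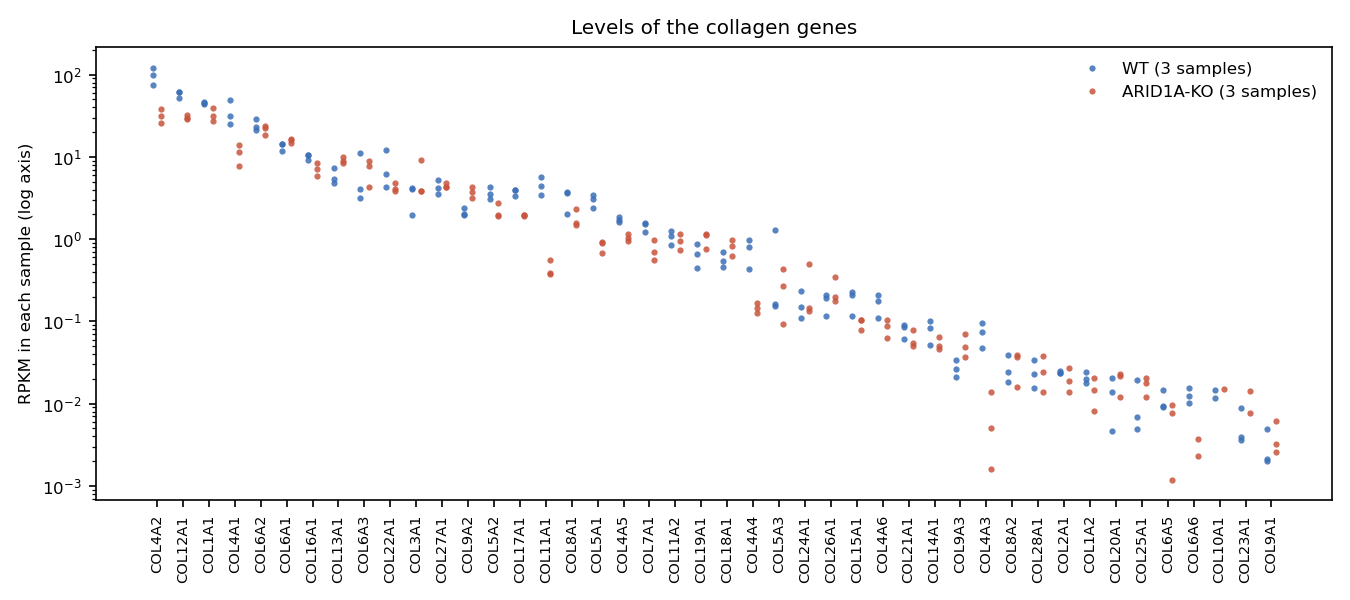
RPKM of the collagen genes in each of the 6 samples on a log axis, ordered by the mean over all samples. The genes span several orders of magnitude from COL4A2 to COL9A1, and 5 values at 0 RPKM are not drawn.

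The type IV genes lie in 3 pairs, each with its members head to head around a shared stretch of DNA. COL4A1 and COL4A2, which encode the chains found in nearly all basement membranes, start 126 bases apart on chromosome 13. COL4A3 and COL4A4 start 418 bases apart on chromosome 2, and COL4A5 and COL4A6 379 bases apart on chromosome X. Their chains occur in fewer tissues, and only some of these chains in the filter of the kidney. The stretch between the first pair and 250 bases before the start of one gene of each other pair are shown because both members of each pair were lower in ARID1A-KO cells. They come from the RefSeq promoters of GRCh38.p14, on the plus strand, and capitals mark matches on either strand to GGGCGG (the GC box), to CCAAT, to TATAAA or to TGACTCA, the motif of AP-1.
COL4A1 to COL4A2 (chr13:110307158-110307283): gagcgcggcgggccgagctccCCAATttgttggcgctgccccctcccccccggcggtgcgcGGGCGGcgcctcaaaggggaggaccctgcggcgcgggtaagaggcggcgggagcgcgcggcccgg
COL4A3 (chr2:227164374-227164623): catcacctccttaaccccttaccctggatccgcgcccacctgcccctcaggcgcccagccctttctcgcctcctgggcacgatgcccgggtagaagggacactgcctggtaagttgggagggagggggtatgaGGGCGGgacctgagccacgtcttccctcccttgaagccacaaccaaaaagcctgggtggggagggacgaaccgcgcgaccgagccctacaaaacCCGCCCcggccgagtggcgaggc
COL4A5 (chrX:108439588-108439837): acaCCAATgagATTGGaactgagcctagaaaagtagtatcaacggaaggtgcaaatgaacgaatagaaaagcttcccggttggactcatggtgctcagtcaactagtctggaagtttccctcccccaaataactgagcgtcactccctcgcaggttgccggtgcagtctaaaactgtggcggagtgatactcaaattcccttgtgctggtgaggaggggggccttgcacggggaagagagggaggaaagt
The stretch between COL4A1 and COL4A2 holds 1 GC box and 1 CCAAT, the COL4A3 stretch 2 GC boxes, and the COL4A5 stretch 2 CCAAT.

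COL4A1 was found at 195, 383 and 246 CPM in WT and at 91.5, 109 and 61.5 CPM in ARID1A-KO cells, a log2 fold change of -1.66 ± 0.26 (SE, edgeR adjusted p = 0.00107). Its level in WT replicate 4 was over 1.5 times that in both other WT samples, and still the genotypes did not overlap. COL4A2 was found at 593, 965 and 775 CPM in WT and at 245, 300 and 203 CPM in ARID1A-KO cells, with a log2 fold change of -1.64 ± 0.18 (edgeR adjusted p = 0.000162). The partners therefore moved by nearly the same amount. The ratio of their RPKM, COL4A2 over COL4A1, was 2.51 to 3.15 in WT and 2.68 to 3.29 in ARID1A-KO cells, and these ranges overlapped.

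COL4A4 was found at 7.94, 4.25 and 9.66 CPM in WT and at 1.23, 1.46 and 1.64 CPM in ARID1A-KO cells (log2 fold change -2.33 ± 0.28, edgeR adjusted p = 0.000257). Its partner COL4A3 was rare, with 0.869, 0.437 and 0.670 CPM in WT and 0.0147, 0.127 and 0.0454 CPM in ARID1A-KO cells (log2 fold change -3.47 ± 0.51, edgeR adjusted p = 0.000787). Neither gene overlapped between genotypes, although WT replicate 4 had the lowest WT level of both. The log2 fold change of COL4A3 was -4.29 without ARID1A-KO replicate 4 and no larger in size than -3.70 without any other sample. With counts taken without regard to strand, the log2 fold change was -1.47 (adjusted p = 0.00268). Reads from the opposite strand came to 50.8% of its own reads in WT and to 567% in ARID1A-KO cells, and their mean level was 0.333 CPM in WT and 0.313 CPM in ARID1A-KO cells. The lncRNA MFF-DT shares exon bases with COL4A3 on that strand.

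The X-linked pair differed less. COL4A5 was found at 14.1, 14.8 and 16.2 CPM in WT and at 9.03, 8.39 and 10.2 CPM in ARID1A-KO cells (log2 fold change -0.71 ± 0.10, edgeR adjusted p = 0.000715). COL4A6 was found at 2.05, 1.10 and 1.77 CPM in WT and at 0.632, 1.04 and 0.864 CPM in ARID1A-KO cells (log2 fold change -0.96 ± 0.27, edgeR adjusted p = 0.0206). The WT and ARID1A-KO values of COL4A6 nearly touched, and its adjusted p rose to 0.0821 without WT replicate 3, to 0.0649 without WT replicate 5 and to 0.0741 without ARID1A-KO replicate 3.

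The fibrillar collagens have long uninterrupted helices and line up side by side into fibrils. Their genes are built from many exons of 54 bases, which encode 6 Gly-X-Y repeats each. In the canonical transcripts of the GENCODE annotation, such exons made up 41.2% to 55% of the coding exons of the 11 fibrillar genes and 2.13% to 5.66% of those of the 6 type IV genes. The first such exon of each of the 4 fibrillar genes that were lower in ARID1A-KO cells is shown, in the GRCh37 sequence and in the direction of transcription, with the glycine codon of each repeat in capitals.
COL1A1 (chr17:48275310-48275363, minus strand): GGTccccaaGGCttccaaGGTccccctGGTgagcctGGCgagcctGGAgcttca
COL5A1 (chr9:137645696-137645749, plus strand): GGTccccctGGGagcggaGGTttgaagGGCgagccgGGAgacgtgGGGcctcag
COL5A2 (chr2:189962003-189962056, minus strand): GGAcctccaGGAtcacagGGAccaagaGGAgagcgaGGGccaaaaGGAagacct
COL11A1 (chr1:103474019-103474072, minus strand): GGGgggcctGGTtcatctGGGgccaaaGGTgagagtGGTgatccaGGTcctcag
The other 7 fibrillar genes did not pass the test.

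COL11A1, a minor fibrillar chain known from cartilage that is also made by many tumors, was found at 36.6, 28.4 and 46.9 CPM in WT cells. In ARID1A-KO cells it was at 3.10, 3.20 and 4.56 CPM, and every WT sample lay far above them. Its log2 fold change of -3.35 ± 0.21 corresponds to a 10.2-fold lower level (edgeR adjusted p = 6.61e-06). It fell from the 11th to the 23rd place in the order of collagen levels. In the RefSeq promoters (GRCh38.p14), the 250 bases before its start, in the direction of transcription from the minus strand, hold 3 GC boxes and 1 CCAAT, in capitals, and are shown because COL11A1 had the largest change of the collagens with over 1 CPM on average.
COL11A1 (chr1:103108523-103108772): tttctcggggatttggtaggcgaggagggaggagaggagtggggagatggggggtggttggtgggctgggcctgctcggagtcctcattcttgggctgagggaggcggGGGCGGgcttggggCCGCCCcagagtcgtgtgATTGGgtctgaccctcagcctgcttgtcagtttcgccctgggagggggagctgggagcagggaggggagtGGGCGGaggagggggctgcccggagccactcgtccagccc

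COL5A1 and COL5A2 encode the chains of type V collagen, which is buried inside type I fibrils and limits their width. COL5A1 was found at 26.4, 34.8 and 38.0 CPM in WT and at 7.51, 10.4 and 10.1 CPM in ARID1A-KO cells. The groups were well apart, with a log2 fold change of -1.83 ± 0.16 (edgeR adjusted p = 3.99e-05). COL5A2 was found at 25.3, 22.0 and 30.8 CPM in WT and at 13.6, 14.1 and 19.7 CPM in ARID1A-KO cells, a log2 fold change of -0.72 ± 0.16 (edgeR adjusted p = 0.00747). The RPKM ratio of COL5A2 to COL5A1 was 0.990 to 1.5 in WT and 2.12 to 3.05 in ARID1A-KO cells, so that it was higher in every ARID1A-KO sample. The third chain, COL5A3, was found at 1.05 to 8.79 CPM in WT and at 0.625 to 2.91 CPM in ARID1A-KO cells, and did not pass the test (edgeR adjusted p = 0.332). Its highest value was in WT replicate 4, without which its log2 fold change turned from -1.08 to 0.69.

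The result for COL5A1 holds for the strand of the gene. Reads on the opposite strand over its exons came to 4.60, 4.09 and 5.65 CPM in WT and to 25.6, 25.1 and 21.6 CPM in ARID1A-KO cells, and were thus higher in every ARID1A-KO sample. With the strands counted together, COL5A1 no longer differed, with a log2 fold change of -0.18 (edgeR adjusted p = 0.277). In the GENCODE annotation, the lncRNA ENSG00000286502 lies on the minus strand of chromosome 9 from 137662497 to 137667517 (GRCh37) inside COL5A1, and 1 of its exons shares bases with exons of COL5A1. The deposited counts hold no entry for this lncRNA, so its own level could not be analysed.

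COL1A1, the main chain of type I collagen, was found at 431, 448 and 462 CPM in WT and at 267, 312 and 388 CPM in ARID1A-KO cells. This log2 fold change of -0.47 ± 0.12 (edgeR adjusted p = 0.0129) was the smallest among the 16 genes that were lower, and it left COL1A1 as an abundant collagen in both genotypes. COL1A2, whose chain joins 2 COL1A1 chains in the common form of type I collagen, was nearly absent, with 0.0910 to 0.270 CPM in all 6 samples. On the RPKM scale the mean level was 0.0206 for COL1A2 and 45.5 for COL1A1 in WT cells.

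COL3A1, the chain of type III collagen of soft tissues, was found at 13.5 to 28.4 CPM in WT and at 26.1, 26.4 and 63.4 CPM in ARID1A-KO cells. ARID1A-KO replicate 5 lay over 1.5 times above its fellow samples, and the difference did not pass the test (log2 fold change 0.74 ± 0.37, edgeR adjusted p = 0.151). The values of COL27A1 overlapped, with a log2 fold change of 0.04 ± 0.12. The 3 remaining fibrillar genes, COL2A1, COL11A2 and COL24A1, had log2 fold changes of -0.26, -0.17 and 0.67 and adjusted p-values of 0.318 or more.

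**Figure D3:**
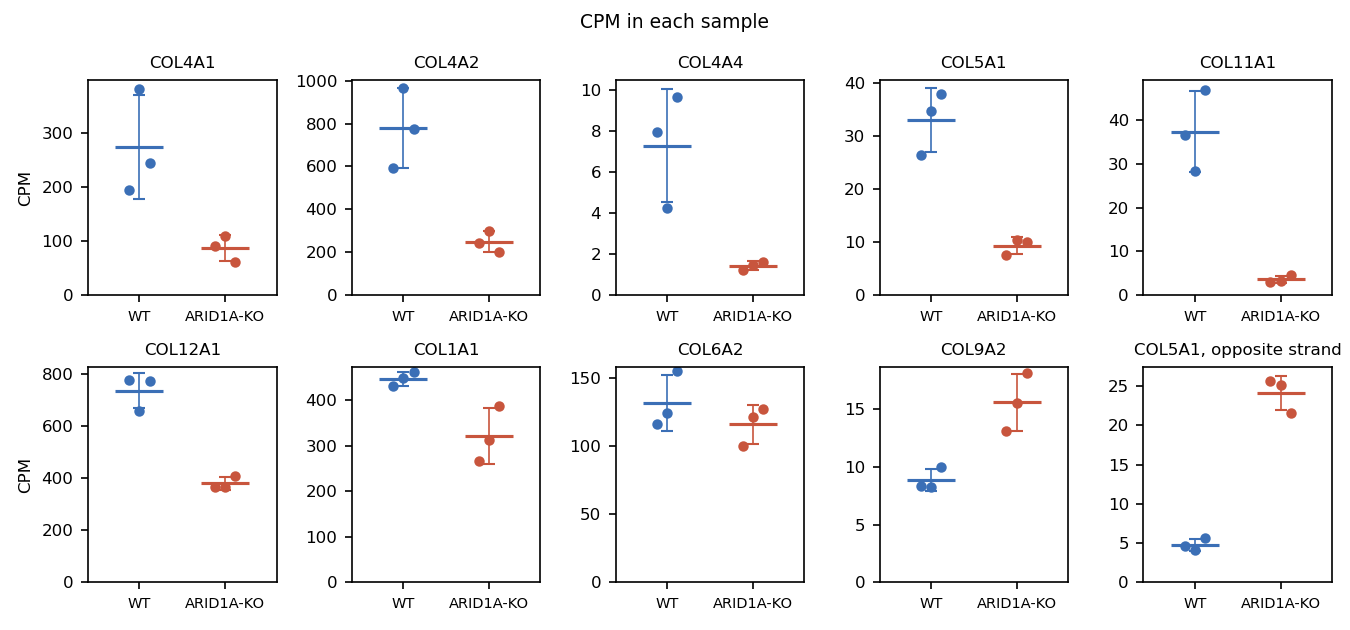
CPM in each WT and ARID1A-KO sample (points) with the mean and SD for 9 collagen genes, and for reads on the strand opposite to COL5A1. Each axis starts at 0, COL6A2 is the only one of the genes drawn whose groups overlap, and the opposite strand of COL5A1 rises where COL5A1 falls.

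The fibril-associated collagens have interrupted helices and sit on the surface of fibrils. COL12A1, the most abundant of them, was found at 778, 659 and 772 CPM in WT and at 367, 366 and 408 CPM in ARID1A-KO cells. The samples of each genotype lay close together, and the log2 fold change was -0.95 ± 0.08 (edgeR adjusted p = 3.97e-05). COL16A1 was lower as well, with 98.2, 85.4 and 98.6 CPM in WT and 54.9, 66.0 and 79.0 CPM in ARID1A-KO cells (log2 fold change -0.50 ± 0.12, edgeR adjusted p = 0.0108).

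COL9A2, one of the chains of the cartilage collagen type IX, was found at 8.35, 8.24 and 9.98 CPM in WT and rose to 13.1, 15.5 and 18.1 CPM in ARID1A-KO cells (log2 fold change 0.82 ± 0.13, edgeR adjusted p = 0.00137). Its partner COL9A3 was at 0.103 to 0.165 CPM in WT and at 0.176 to 0.341 CPM in ARID1A-KO cells. The groups of COL9A3 did not overlap, and it missed the threshold (edgeR adjusted p = 0.0753). COL9A1 had at most 3 counts in any sample. The cartilage markers SOX9 and ACAN were also higher in ARID1A-KO cells, with log2 fold changes of 0.40 and 0.92. SOX9 missed the threshold without WT replicate 3 (0.0963), ARID1A-KO replicate 3 (0.0580) or ARID1A-KO replicate 4 (0.0862), whereas MATN3 did not pass the test and COMP was near 0.

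Of the other fibril-associated genes, COL22A1 was found at 33.5, 96.5 and 47.9 CPM in WT and at 31.7, 38.0 and 30.5 CPM in ARID1A-KO cells. Its high value in WT replicate 4 and the overlap of the groups stand beside a log2 fold change of -0.83 ± 0.31 (edgeR adjusted p = 0.0662), which was -0.29 without WT replicate 4 and passed without WT replicate 3 (adjusted p = 0.0112). COL19A1 was found at 3.70 to 7.26 CPM in WT and at 6.26 to 9.73 CPM in ARID1A-KO cells (log2 fold change 0.61 ± 0.24, edgeR adjusted p = 0.0785), and passed the test under 8 of 15 alternatives. COL14A1, COL20A1 and COL21A1 were under 1 CPM in all samples and did not pass the test.

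Of type VI collagen, a microfibril that surrounds many cells, none of the 3 tested genes passed the test. COL6A2 was found at 116, 124 and 155 CPM in WT and at 100, 121 and 127 CPM in ARID1A-KO cells, and the groups overlapped (log2 fold change -0.18 ± 0.12, edgeR adjusted p = 0.269). COL6A1, its neighbor on chromosome 21, was at 63.1, 77.3 and 76.4 CPM in WT and at 78.3, 88.0 and 85.6 CPM in ARID1A-KO cells. Its values did not overlap, yet the log2 fold change of 0.22 ± 0.09 missed the threshold (edgeR adjusted p = 0.0826). It passed without a filter (0.0386) and was 0.01 with an offset on GC content. COL6A3 varied most, from 62.6 to 217 CPM in WT and from 84 to 175 CPM in ARID1A-KO cells (edgeR adjusted p = 0.769), and its log2 fold change was 0.93 without WT replicate 4 (0.0206) and -0.13 without WT replicate 3 (0.845). With an offset on GC content COL6A2 became lower (log2 fold change -0.44, adjusted p = 0.00147).

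COL7A1, which forms the anchoring fibrils under the epidermis, fell from a mean of 16.0 ± 2.29 to 8.26 ± 2.34 CPM (SD, n = 3 each), with an edgeR adjusted p of 0.00415. COL17A1, a transmembrane collagen of hemidesmosomes, was found at 21.7, 25.7 and 25.4 CPM in WT and at 12.5, 12.7 and 12.3 CPM in ARID1A-KO cells (log2 fold change -0.96 ± 0.09, edgeR adjusted p = 5e-05). COL13A1, a transmembrane collagen of adhesion sites, was the other gene that rose, from 28.3, 42.7 and 31.5 CPM to 51.7, 59.2 and 49.9 CPM (log2 fold change 0.65 ± 0.14, edgeR adjusted p = 0.00614).

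COL8A1, which forms hexagonal lattices around vessels and in the cornea, was found at 34.4, 18.9 and 35.2 CPM in WT and at 13.9, 15.0 and 21.7 CPM in ARID1A-KO cells. It passed the test (log2 fold change -0.80 ± 0.24, edgeR adjusted p = 0.0274), but its groups overlapped through WT replicate 4, and it failed under 6 of 15 alternatives, with log2 fold changes from -1.04 to -0.43. Among these, leaving out WT replicate 3 gave an adjusted p of 0.0966, WT replicate 5 gave 0.104, ARID1A-KO replicate 3 gave 0.0905 and ARID1A-KO replicate 4 gave 0.0875. COL15A1, a basement membrane collagen with an endostatin-like end, fell from a mean of 1.23 ± 0.399 to 0.633 ± 0.0915 CPM (SD, n = 3 each, edgeR adjusted p = 0.0208). It missed the threshold without WT replicate 3 (0.0709), WT replicate 4 (0.0612) or ARID1A-KO replicate 4 (0.0751). COL18A1, the source of endostatin, had 3.87 to 6.0 CPM in WT and 5.32 to 8.21 CPM in ARID1A-KO cells and did not pass the test (edgeR adjusted p = 0.0711), but did so under 6 of 15 alternatives. Reads on the opposite strand, where SLC19A1 shares exon bases, came to 68.3% of those of COL18A1 in WT and to 35.5% in ARID1A-KO cells. COL8A2, COL26A1 and COL28A1 had adjusted p-values of 0.236 or more.

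Each collagen gene was set beside the median log2 fold change of all other tested genes within 5 Mb. The neighbors of COL4A1 and COL4A2 had a median of -0.37 (40 genes), as did those of COL8A1 (43 genes), and those of COL12A1 -0.30 (40 genes). At COL11A1 the median was 0.00 (31 genes), at COL5A1 0.08 (135 genes), and at COL4A3 and COL4A4 -0.11 (61 genes). COL11A1 and COL5A1 were thus set among neighbors with a median near 0, and COL4A1 and COL4A2 among neighbors whose median was also below 0. The part of the neighborhood in these results was not tested beyond the offset given next. Around COL13A1 the median was 0.40 (95 genes), and once the neighbors were used as an offset, its log2 fold change was 0.25 and no longer passed (adjusted p = 0.206). COL17A1, on the same chromosome with a median of 0.41 (88 genes), moved against its neighbors. With this offset COL4A6 (adjusted p = 0.0514) and COL8A1 (0.201) also missed the threshold.

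**Figure D4:**
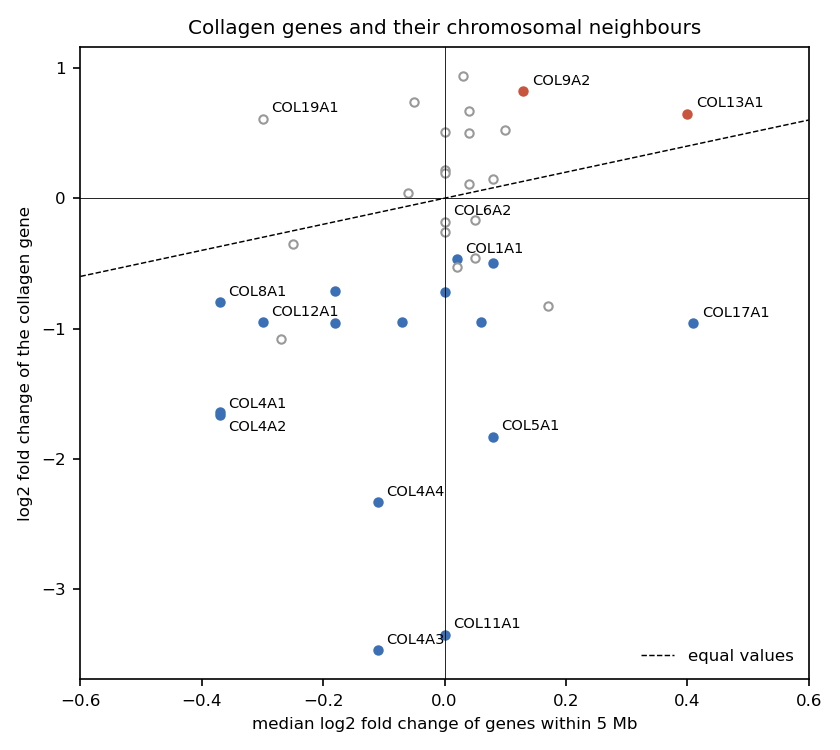
Log2 fold change of each tested collagen gene against the median log2 fold change of the tested genes within 5 Mb, with a dashed line where both are equal. COL11A1 and COL5A1 lie far below neighbors whose median is 0.00 and 0.08, while COL13A1, at 0.65, lies above a median of 0.40.

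The collagen genes are long, with a median span of 133 kb and a median exonic length of 7881 bp, compared with 24.2 kb and 3862 bp for all genes tested. Of the 44 genes, 32 were found among the RefSeq promoters, with 44 windows. COL1A1, COL1A2, COL2A1, COL3A1, COL5A2, COL6A1, COL6A5, COL8A1, COL9A3, COL14A1, COL20A1 and COL22A1 were not. In the 250 bases before the start, on either strand, GGGCGG was found in 54.5% of the collagen windows and 42.6% of all 35116 windows, CCAAT in 27.3% and 32.0%, TATAAA in 18.2% and 10.7%, and TGACTCA in 0.00% and 4.2%. Counted by gene, with a match in any window of the gene, the collagen genes with a GC box were 21 of 32. Among the genes lower in ARID1A-KO cells they were 10 of 13. No count by gene was made for all genes, and the 42.6% by window is an unlike measure. The 250 bases before COL5A1 are given as an example of a window with GC boxes only, 2 in number and in capitals, on the plus strand of GRCh38.p14.
COL5A1 (chr9:134641553-134641802): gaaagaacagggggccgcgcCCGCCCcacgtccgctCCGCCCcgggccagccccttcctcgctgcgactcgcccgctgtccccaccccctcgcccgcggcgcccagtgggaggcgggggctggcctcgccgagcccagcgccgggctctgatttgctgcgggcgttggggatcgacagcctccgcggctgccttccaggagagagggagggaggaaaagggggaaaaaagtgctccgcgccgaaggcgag

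Collagen chains are hydroxylated and glycosylated, folded, exported, trimmed, crosslinked, bound and finally degraded by other proteins. Of 62 genes listed for these steps, 56 were tested, and 12 were higher and 16 lower in ARID1A-KO cells, or 21.4% and 28.6% against 17.8% and 18.4% of all genes tested. Their median log2 fold change was -0.01. Of the 15 genes of hydroxylation and glycosylation, 3 were higher and 3 lower. PLOD2, the lysyl hydroxylase that acts on the telopeptides where crosslinks form, fell from 163, 176 and 173 CPM to 35.7, 33.2 and 41.2 CPM (log2 fold change -2.22 ± 0.09, edgeR adjusted p = 6.75e-07). The prolyl 3-hydroxylase P3H2, known to act on type IV collagen, had a log2 fold change of -1.45 ± 0.12 (adjusted p = 3.34e-05), and the prolyl 4-hydroxylase subunit P4HA3 one of -0.86 ± 0.21 (adjusted p = 0.0102). The 3 higher genes were P4HA1 (log2 fold change 0.54, adjusted p = 0.00232), P3H1 (0.44, adjusted p = 0.00175) and COLGALT1 (0.20, adjusted p = 0.0182). P4HA1 had a mean of 57.2 CPM in WT cells and P4HA3 one of 4.59 CPM. The 9 genes of folding and export moved little, with log2 fold changes of 0.41 for the foldase FKBP10 and -0.39 for SEC24D, a coat protein of export vesicles, as the called genes, and the collagen chaperone SERPINH1 did not pass the test (-0.10, adjusted p = 0.362).

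All 8 genes of propeptide removal, the trimming that lets fibrils form, passed the test, 3 higher and 5 lower, where 36.2% of all genes did. TLL1, a protease of the BMP1 family, fell from 4.44, 5.14 and 5.24 CPM to 0.382, 0.291 and 0.409 CPM (log2 fold change -3.75 ± 0.18, edgeR adjusted p = 1.85e-06), and its neighbors within 5 Mb had a median of -1.29. The N-propeptidase ADAMTS3 was lower (log2 fold change -0.65), while TLL2 was higher (0.55). ADAMTS2 and ADAMTS14 were higher as well, with log2 fold changes of 0.48 (edgeR adjusted p = 0.0155) and 2.56 (adjusted p = 0.000195). ADAMTS14 was rare, at 1.17 CPM or less, with 14, 9 and 8 counts in WT and 50, 50 and 103 in ARID1A-KO cells. Its level in ARID1A-KO cells alone could thus bring it through the filter and into the share given above. TLL2 missed the threshold when any of WT replicates 3 and 4 or ARID1A-KO replicates 3 and 4 was left out, with adjusted p-values of 0.112, 0.0922, 0.102 and 0.0875.

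Among the 5 crosslinking enzymes, which oxidize lysines of collagen and elastin, LOX fell from 79.8, 63.5 and 82.1 CPM to 20.2, 20.5 and 34.3 CPM (log2 fold change -1.58 ± 0.20, edgeR adjusted p = 0.000289). LOXL1 fell from 15.5, 11.9 and 13.3 CPM to 1.53, 2.49 and 4.06 CPM (log2 fold change -2.31 ± 0.29, edgeR adjusted p = 0.000286). No sample of one genotype reached the range of the other for either gene. LOXL2 was slightly higher (log2 fold change 0.24, adjusted p = 0.0102), a difference that missed the threshold without ARID1A-KO replicate 4 (0.0529).

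Of 8 proteoglycans that bind fibrils, 3 were tested. Biglycan (BGN) was higher (log2 fold change 1.51) and lumican (LUM) lower (-1.24), but the LUM groups overlapped, and LUM missed the threshold without WT replicate 3, WT replicate 5, ARID1A-KO replicate 3 or ARID1A-KO replicate 4 (adjusted p of 0.123, 0.135, 0.124 and 0.124). Of 10 receptors, 3 were lower, or 30.0% against 18.4% of all genes tested. They were the collagen-binding tyrosine kinases DDR2 (log2 fold change -0.92) and DDR1 (-0.33) and the integrin chain ITGA1 (-0.57). LAIR1, at 0.582 CPM or less, was higher, 1 of the 10 receptors, where 17.8% of all genes were higher. In either direction 40.0% of the receptors passed the test, a share near the 36.2% of all genes. DDR1 missed the threshold with an offset on exonic length (log2 fold change -0.22, adjusted p = 0.0630). ITGA1 missed the threshold without WT replicate 3 (0.0939), WT replicate 5 (0.109), ARID1A-KO replicate 3 (0.113) or ARID1A-KO replicate 4 (0.110). It kept its call under 8 of 15 alternatives.

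Of the 7 genes of degradation 6 were tested. MMP14, a membrane-bound collagenase, rose from 12.9, 16.2 and 13.1 CPM to 75.6, 81.4 and 73.0 CPM (log2 fold change 2.45 ± 0.10, edgeR adjusted p = 6.91e-07). CTSK, the collagenase of osteoclasts, was higher as well (log2 fold change 0.81, adjusted p = 0.00680). The gelatinase MMP2 was lower (log2 fold change -0.34, adjusted p = 0.0316, and -0.63 to -0.20 over the alternatives), and missed the threshold without WT replicate 5 (0.0581), ARID1A-KO replicate 3 (0.0784), ARID1A-KO replicate 4 (0.0597) or ARID1A-KO replicate 5 (0.0810).

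**Figure D5:**
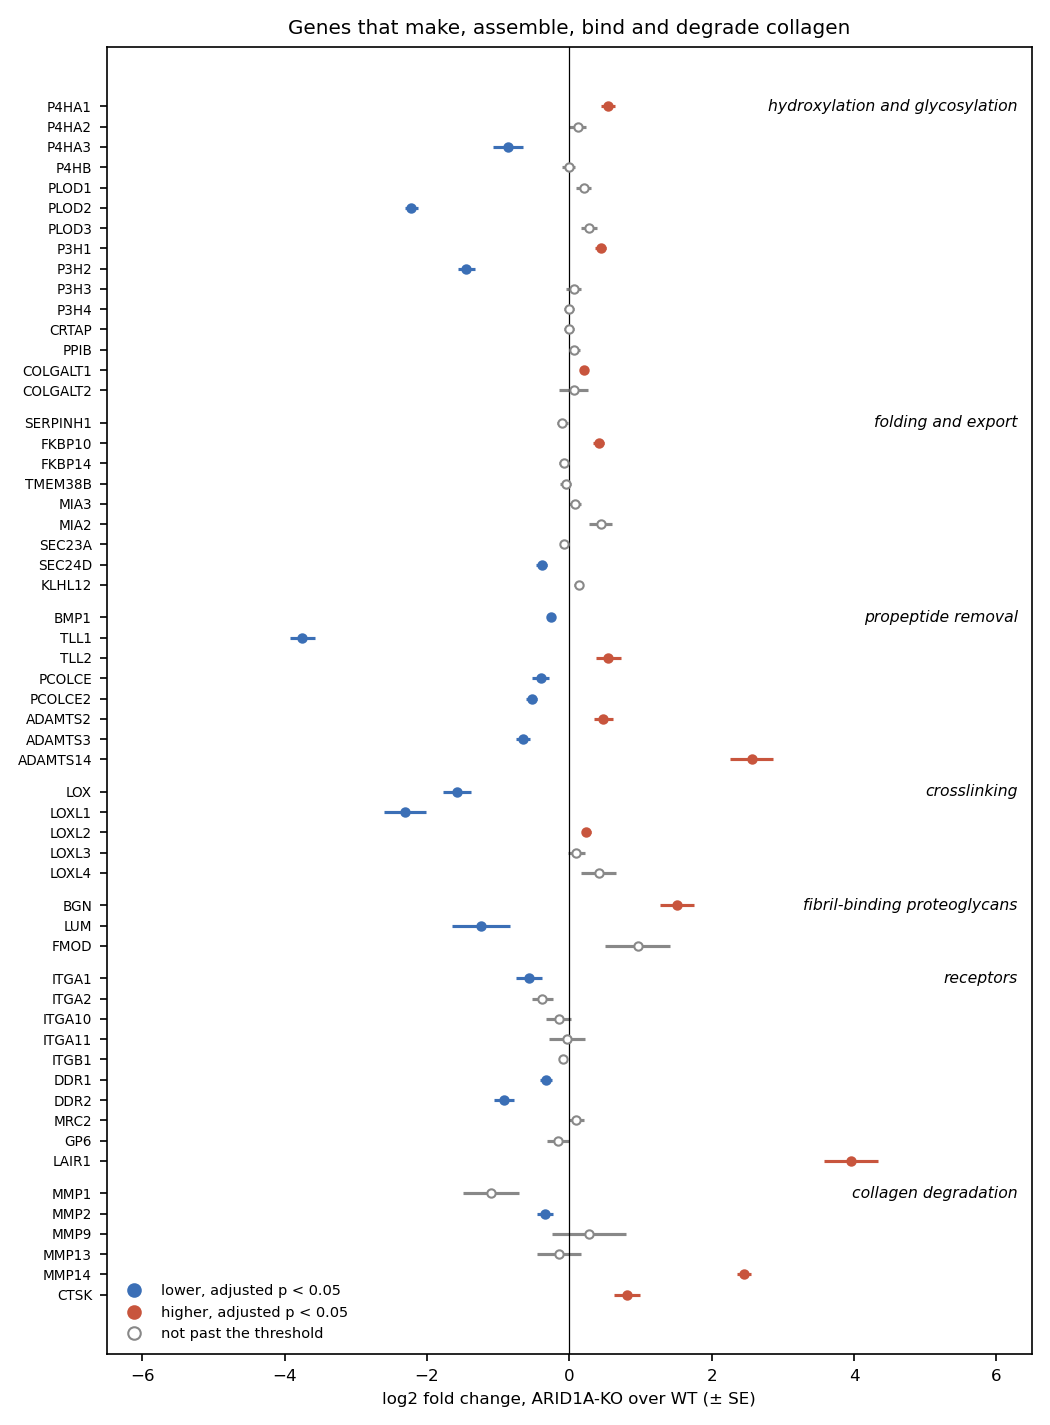
Log2 fold change of the 56 tested genes that make, assemble, bind and degrade collagen, ARID1A-KO over WT, with the standard error. Filled points passed the test. PLOD2, TLL1, LOX and LOXL1 lie far to the left of 0, while LAIR1, ADAMTS14 and MMP14 lie far to the right.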

How the data were processed

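RNA of untreated cells was sequenced for both genotypes, WT and ARID1A-KO, with 3 samples of each, grouped by the genotype label. The authors prepared stranded paired-end libraries (100 bp), aligned the reads to GRCh37 with STAR and deposited featureCounts counts per gene without normalization. Reverse-stranded counts were used as the gene count; forward counts came to 5.83% to 6.15% of them per sample. Deposited normalized columns were not used.

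Low genes were removed with filterByExpr, library sizes were scaled by TMM, and all 6 samples were fitted with edgeR 4.0.16 in R 4.3.3 (quasi-likelihood test, Benjamini-Hochberg adjustment over 19599 genes, threshold 0.05). The common biological coefficient of variation was 0.111. CPM and RPKM were computed from the counts with TMM library sizes. The fit was tested on simulated data. The labels give no batch.

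The members and lists were chosen with earlier results of these data known. Full values are given for collagen genes that were called with a log2 fold change of at least 1 in size and a mean log2 CPM over 0, for the 5 highest levels and for neighboring pairs, and other values in the text were added after they were seen. In each pathway role up to 3 called genes with a mean log2 CPM over 0 were named by rule, and others were added after they were seen. Alternatives were unstranded counts, RLE, DESeq2 1.42.0, other filters, a replicate block, each sample left out, a threshold of 0.01, and loess offsets (span 0.3) on length, GC content and neighbors within 5 Mb. The marker PECAM1 had no match.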

Additional observations from a re-analysis of the deposited data

Results flagged for a closer look

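Reads on the strand opposite to COL5A1 were higher in all 3 ARID1A-KO samples than in all 3 WT samples, with a mean of 24.1 ± 2.15 CPM against 4.78 ± 0.799 CPM (SD, n = 3 each), or 5.04-fold. They came to 14.4% of the COL5A1 reads in WT and to 255% in ARID1A-KO cells. Opposite-strand reads over COL6A2 were also higher in each ARID1A-KO sample, with 1.17 ± 0.216 against 0.557 ± 0.0253 CPM, but came to no more than 1.01% of the COL6A2 reads in either genotype. Both were found in a count column that the comparisons do not use, among collagen genes with at least 50 such reads per sample on average. They were picked because every ARID1A-KO sample lay above every WT sample. COL18A1 also had enough such reads, but they were lower in each ARID1A-KO sample (2.48 ± 0.263 against 3.26 ± 0.125 CPM). None of these differences was tested.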

How the results depend on the processing

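The count of collagen genes lower in ARID1A-KO cells, 16, stayed within 1.5 times under all 16 alternatives. It was 11 at a threshold of 0.01, 19 without a filter and 14 to 16 with single samples left out. At 0.01, COL1A1, COL4A6, COL8A1, COL15A1 and COL16A1 were lost. The count of those higher, 2, became 4 with DESeq2, 7 without a filter, 6 with the replicate block and 4 with an offset on exonic length, and was 2 to 4 with single samples left out, the highest without WT replicate 4. At a threshold of 0.01, 9 instead of 16 pathway genes were lower. Of 62 genes with alternatives (all 38 tested collagen genes among them), 40 were called, and none of these changed direction. This set is not the list of pathway genes. It leaves out P4HA1, P3H1, COLGALT1, ADAMTS2, ADAMTS14, LAIR1 and the cell type markers other than SOX9 and ACAN. Of the values of all 62, 837 kept direction and side of the threshold, 44 lost the call, 27 gained it and 15 changed direction, in genes that were not called. With single samples left out, the log2 fold change was -1.62 to 0.69 for COL5A3, -0.13 to 0.93 for COL6A3, -0.04 to 0.48 for COL8A2, -0.23 to 1.01 for COL24A1, -0.09 to 0.20 for COL27A1, -0.32 to 0.45 for COL28A1 and -0.02 to 0.09 for COL4A3BP. It was -0.55 for COL20A1 with unstranded counts and -0.03 for COL27A1 with the GC offset. COL4A3 was not tested with at least 10 counts in every sample. Samples with the same number did not deviate together throughout (correlations of -0.244, 0.49 and 0.322). Whether the numbers pair the samples by design is not given in the sources used here. Under the replicate block 23 collagen genes were called, all 18 of the main test among them. It added COL3A1 (edgeR adjusted p = 0.0259), COL6A1 (0.0222), COL18A1 (0.0240), COL19A1 (0.0315) and COL22A1 (0.0173). The cause of these changes was not tested. For genes with few reads, such as COL4A3 and COL9A3, depth limits what can be seen.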

Other observations

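COL4A3BP, which encodes a ceramide transfer protein and no collagen chain, was found at 23.8 CPM on average in WT and 24.6 CPM in ARID1A-KO cells (log2 fold change 0.05, edgeR adjusted p = 0.696). The pseudogenes COL6A4P1, COL6A4P2 and COL11A2P1 and the antisense genes COL5A1-AS1, COL4A2-AS1, COL4A2-AS2, COL18A1-AS1 and COL18A1-AS2 stayed under 0.2 CPM in every sample and were not tested.

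Within a genotype, single samples stood apart in several collagen genes. Among 28 tested collagen genes with at least 50 counts on average, WT replicate 4 was at least 1.5 times above both other WT samples in COL4A1, COL5A3, COL6A3 and COL22A1 and as far below them in COL3A1, COL4A4, COL4A6 and COL8A1. ARID1A-KO replicate 5 was above its fellow samples in COL3A1 and COL24A1 and below them in COL5A3 and COL6A3. WT replicate 3, WT replicate 5 and ARID1A-KO replicate 4 each stood apart in 1 gene, and ARID1A-KO replicate 3 in 0 genes.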
